A study of Mus musculus with 7 samples.

Results

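Caspases are proteases that are made as inactive precursors and cut other proteins after aspartate residues, and the inhibitors of apoptosis proteins (IAPs) hold them in check. The 8 genes described here are 5 caspase genes, Casp1, Casp2, Casp6, Casp8 and Casp9, and 3 IAP genes, Birc2, Birc3 and Xiap. They were taken as a list of symbols and are 8 of 18193 genes measured by a probe set with a single gene symbol. A probe set is a group of array probes read together as 1 signal. Where a gene has several probe sets, the one brightest on average over the 7 arrays stands for it. The arrays were 3 Affymetrix expression arrays of whole testis from Phf13 knockout mice and 4 of whole testis from wild type mice, all aged 15 to 20 weeks. The protein made from Phf13 has a PHD finger and acts on chromatin. The labels give neither the strain of the mice nor the design of the knockout allele, and do not say that each array came from its own animal, so the p-values measure the spread between these arrays.

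In the death receptor pathway, Casp8 is the initiator caspase that is activated in a complex with the adaptor Fadd. In the mitochondrial pathway, Casp9 is activated on the apoptosome, which is built from Apaf1 and released cytochrome c. Casp2 is the initiator of the PIDDosome, Casp6 is an effector caspase that cuts lamins, and Casp1 is the inflammatory caspase that matures interleukin 1 beta. Xiap binds caspases and blocks them directly, while Birc2 and Birc3 are mainly ubiquitin ligases that work with Traf proteins at tumour necrosis factor receptors and in NF-kB signalling. In testis, apoptosis removes many germ cells during normal spermatogenesis, and Sertoli cells engulf the remains.

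Phf13 itself had log2 signals of 6.04, 5.83 and 5.71 on the knockout arrays and of 8.66, 8.64, 8.73 and 8.54 on the wild type arrays, a log2 fold change of -2.78 (SE 0.09, limma adjusted p = 8.77e-06). No source used here says whether this probe set lies in the deleted part. The spermatid protamine gene Prm1, a defining gene of testis, averaged 13.88 in knockout testis and 13.90 in wild type testis, close to the top of the scale. Array medians lay between 5.01 and 5.08, and the lowest Pearson correlation between 2 arrays across tested genes was 0.984. Each array's title opens with a number, and its first 4 digits split the arrays into 3 groups with both genotypes in each: group 1 is knockout 1 and wild type 1, group 2 is knockout 2 and wild type 2 and 3, and group 3 is knockout 3 and wild type 4. The labels give this number no meaning, and it was treated as a possible batch.

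Casp6, Casp8, Birc3 and Xiap were higher in knockout testis, and none of the 8 genes fell. The genes were compared with limma's moderated test, fitted over all 18193 genes with Benjamini-Hochberg adjustment, and rose or fell is used for an adjusted p under 0.05. The 4 rises were of 1.47-fold to 1.66-fold. Casp1, Casp2, Casp9 and Birc2 did not pass. In whole testis, more cells of a type and more RNA per cell cannot be told apart. Of all tested genes 9.06% rose and 7.03% fell in the same fit, so 4 rises among 8 genes is a larger share than the background, though the 8 symbols were listed with earlier results of these arrays known. Signals of the genotypes were fully separate for these same 4 genes, against 28.0% of all tested genes, and an unadjusted p under 0.05 was reached by the same 4 and by 33.8% of all tested genes. The median log2 fold change of the 8 genes was 0.32, and that of all tested genes was -0.045.

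**Figure D1:**
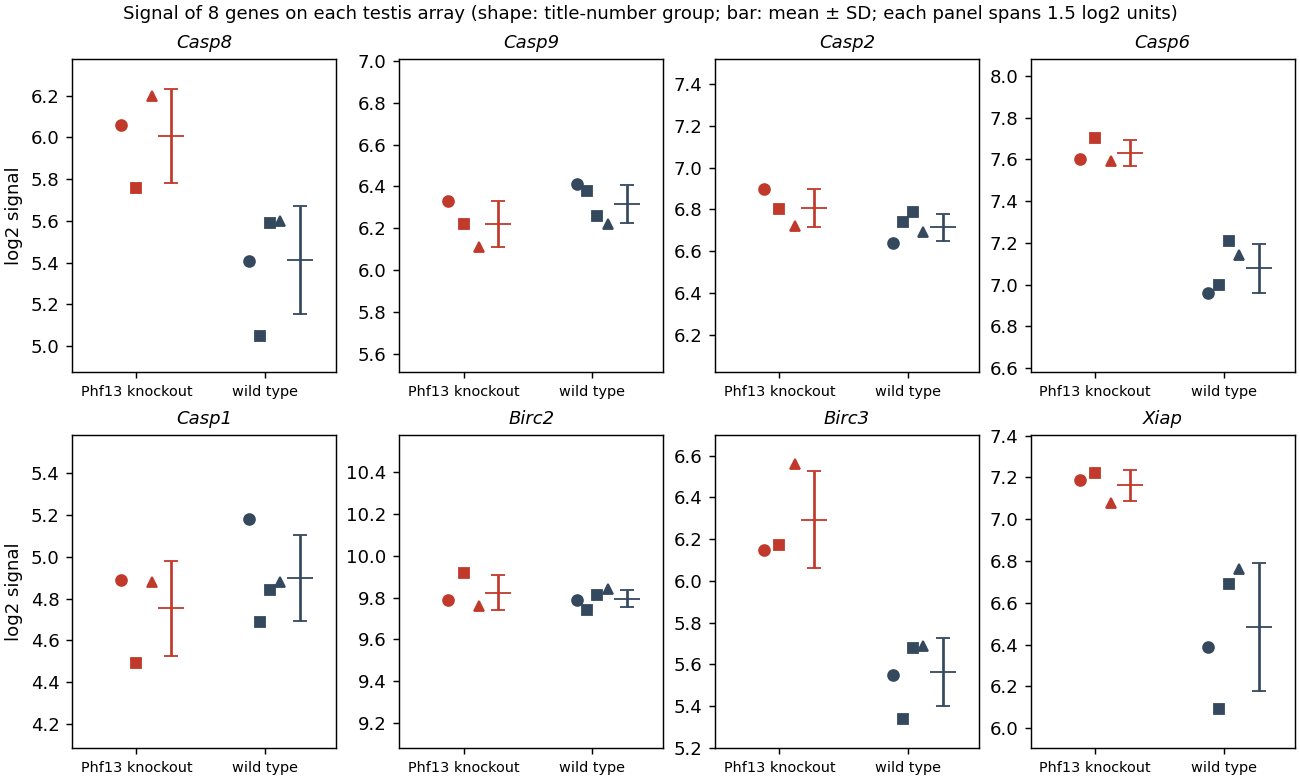
Log2 signal (vertical axis, 1 panel per gene, each spanning the same 1.5 log2 units) of the 8 genes on the 3 knockout arrays (left, red) and the 4 wild type arrays (right, dark). Marker shapes are the 3 title-number groups and bars are means ± SD; the genotypes do not overlap for Casp8, Casp6, Birc3 and Xiap and overlap for the other 4 genes.

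Among the initiator caspases, Casp8 had log2 signals of 6.06, 5.76 and 6.20 on the knockout arrays and of 5.41, 5.05, 5.59 and 5.60 on the wild type arrays. Each knockout array was above each wild type array, and the gap between knockout 2 and the nearest wild type array was narrow. The means were 6.01 ± 0.22 (SD, n = 3) in knockout testis and 5.41 ± 0.26 (SD, n = 4) in wild type testis, a rise of 0.59 on the log2 scale (SE 0.15) or 1.51-fold (limma adjusted p = 0.0352). An exact two-sided permutation test gave p = 0.0286, the smallest that the 35 divisions of 7 arrays into 3 and 4 allow, and the same value was reached by Casp6, Birc3 and Xiap. The limma call for Casp8 was lost without knockout 1 (adjusted p = 0.105), knockout 3 (0.121), wild type 1 (0.0877) or wild type 2 (0.0583), with log2 fold changes of 0.47 to 0.72 over the 7 runs that leave out 1 array. Blocked on the title-number groups it was 0.55 (limma adjusted p = 0.0469).

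Casp9, the apoptosome's caspase, had log2 signals of 6.33, 6.22 and 6.11 on the knockout arrays and of 6.41, 6.38, 6.26 and 6.22 on the wild type arrays. The groups overlapped, with a log2 fold change of -0.10 (SE 0.08, limma adjusted p = 0.411) and a 95% confidence interval from -0.28 to 0.08. This interval does not show that Casp9 was equal in the genotypes, but a rise of the size of that of Casp8 lies outside it. The signal of Casp8 minus that of Casp9 ran from -0.46 to 0.09 on the knockout arrays and from -1.33 to -0.62 on the wild type arrays, without overlap; this pair was set side by side after its values were seen. Like Phf13, Casp9 lies on chromosome 4.

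Casp2 gave 6.90, 6.80 and 6.72 on the knockout arrays and 6.64, 6.74, 6.79 and 6.69 on the wild type arrays. These ranges overlapped, with a log2 fold change of 0.09 (95% confidence interval -0.06 to 0.25, limma adjusted p = 0.376). Its PIDDosome partners had log2 fold changes of -0.10 for Pidd1, the platform protein (limma adjusted p = 0.369), and 0.01 for the adaptor gene Cradd (limma adjusted p = 0.937).

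Casp6 gave the smallest p-value of the 8 genes. Its log2 signals were 7.60, 7.70 and 7.59 on the knockout arrays and 6.96, 7.0, 7.21 and 7.14 on the wild type arrays. The knockout arrays lay close together and all above the wild type arrays. The means were 7.63 ± 0.06 (SD, n = 3) in knockout testis and 7.08 ± 0.12 (SD, n = 4) in wild type testis, a rise of 0.55 (SE 0.08) on the log2 scale or 1.47-fold (limma adjusted p = 0.0116). Of the 4 genes that rose, Casp6 alone stayed past the threshold in all 7 runs that leave out 1 array, with log2 fold changes of 0.51 to 0.60 and limma adjusted p from 0.0114 to 0.0489.

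Casp1 was dim. It gave 4.89, 4.49 and 4.88 on the knockout arrays and 5.18, 4.69, 4.84 and 4.88 on the wild type arrays, and its mean over all arrays, 4.84, lay below the lowest array median. The groups overlapped and the log2 fold change was -0.14 (95% confidence interval -0.46 to 0.17, limma adjusted p = 0.485). Its neighbours on chromosome 9, the inflammatory caspase gene Casp4 (0.05, limma adjusted p = 0.822) and Casp12 (0.16, limma adjusted p = 0.377), did not pass either. Both were dimmer than Casp1, with means over all arrays of 3.22 and 4.51, so their values do not show that expression was equal. Casp14, an epidermal caspase, had a log2 fold change of -0.01 (limma adjusted p = 0.954), so 0 of 3 other caspases measured passed limma's adjusted threshold, and 0 had an unadjusted p under 0.05.

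Birc2 and Birc3 are neighbours on chromosome 9 and encode closely related proteins. Birc3 had the largest fold change of the 8 genes in the main fit, with the brightest probe sets over all 7 arrays, but not under every alternative. Casp8 was larger with the mean of all probe sets (0.59, against 0.38 for Birc3). Xiap was larger without knockout 3 (0.72, against 0.595 for Birc3) and without knockout 3 and wild type 4 (0.815, against 0.637). It was also slightly larger without wild type 4 and when blocked on the replicate number (0.773, against 0.77 for Birc3, in both). The log2 signals of Birc3 were 6.15, 6.17 and 6.56 on the knockout arrays and 5.55, 5.34, 5.68 and 5.69 on the wild type arrays. The groups did not overlap, and knockout 3 was the highest array. The means were 6.29 ± 0.23 (SD, n = 3) in knockout testis and 5.57 ± 0.16 (SD, n = 4) in wild type testis, a rise of 0.73 (SE 0.12) or 1.66-fold (limma adjusted p = 0.0134). Without knockout 3 the log2 fold change was 0.595 with a limma adjusted p of 0.0505, and Birc3 stayed past the threshold in the other 6 runs that leave out 1 array.

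Birc2 gave 9.79, 9.92 and 9.76 on the knockout arrays and 9.79, 9.74, 9.81 and 9.84 on the wild type arrays. The arrays of both genotypes lay within a narrow shared range, with a log2 fold change of 0.03 (SE 0.06, limma adjusted p = 0.782) and a 95% confidence interval from -0.12 to 0.17; its sign was negative (-0.0025) with each array centred on its median. Birc3 minus Birc2 ran from -3.75 to -3.20 on the knockout arrays and from -4.40 to -4.13 on the wild type arrays. These differences did not overlap, but the pair was singled out after its values were seen, so no test is given.

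The 300-base windows around the annotated starts of Birc3 and Birc2 are shown because the adjacent genes gave unlike values, and that of Xiap because it alone among the windows of the 8 genes holds a match to the NF-kB consensus. They were read from RefSeq's GRCm38.p6 annotation, which listed a window for all 8 genes, and are printed 5′ to 3′ on the gene's strand. Birc3 is chr9:7873121-7873420 on the minus strand, Birc2 is chr9:7836757-7837056 on the minus strand (the downstream of its 2 listed windows, which overlap), and Xiap is chrX:42068148-42068447 on the plus strand (1 of its 3). Capitals mark matches, on either strand, to the GC box GGGCGG, to the CCAAT box and to the NF-kB consensus, whose 10-base match lies near the end of the Xiap window.
Birc3: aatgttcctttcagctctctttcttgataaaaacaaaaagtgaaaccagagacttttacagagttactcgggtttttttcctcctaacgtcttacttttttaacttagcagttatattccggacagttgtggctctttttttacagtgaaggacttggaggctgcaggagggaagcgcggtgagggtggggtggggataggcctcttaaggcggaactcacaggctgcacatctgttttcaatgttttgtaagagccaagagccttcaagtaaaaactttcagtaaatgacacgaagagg
Birc2: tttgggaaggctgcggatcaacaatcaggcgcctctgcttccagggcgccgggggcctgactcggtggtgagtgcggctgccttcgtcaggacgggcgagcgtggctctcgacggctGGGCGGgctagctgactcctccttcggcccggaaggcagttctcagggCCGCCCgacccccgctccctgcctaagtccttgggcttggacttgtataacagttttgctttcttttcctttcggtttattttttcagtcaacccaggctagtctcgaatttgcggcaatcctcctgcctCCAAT
Xiap: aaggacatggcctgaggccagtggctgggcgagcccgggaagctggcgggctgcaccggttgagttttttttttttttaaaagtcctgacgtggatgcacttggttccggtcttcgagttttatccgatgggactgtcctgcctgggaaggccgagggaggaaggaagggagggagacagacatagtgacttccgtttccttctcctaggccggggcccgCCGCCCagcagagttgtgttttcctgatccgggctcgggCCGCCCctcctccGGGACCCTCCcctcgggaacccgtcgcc

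The Birc3 window had a GC content of 43.0% and held none of these motifs. The printed Birc2 window had 60.0% GC with 2 GC boxes, 1 on each strand, and a CCAAT box at its end. The other Birc2 window (67.0% GC) held none of the motifs, as for Birc3, so the motifs do not set the neighbours apart. Both Birc2 windows had a higher GC content than that of Birc3. Of 32851 windows of the same length, 35.7% hold a GC box, 37.4% a CCAAT box and 8.46% an NF-kB match. Casp6, which rose, had 3 GC boxes and Casp9, which did not pass, had 4, while Casp8 had a single CCAAT box and no GC box. A match is only a match of letters, and the lack of one says nothing of a factor's binding outside or inside these windows.

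Xiap, the direct caspase inhibitor on the X chromosome, had log2 signals of 7.19, 7.22 and 7.08 on the knockout arrays and of 6.39, 6.09, 6.69 and 6.76 on the wild type arrays. The knockout arrays lay close together above wild type arrays that were spread widely, with wild type 2 the lowest. The means were 7.16 ± 0.07 (SD, n = 3) in knockout testis and 6.48 ± 0.31 (SD, n = 4) in wild type testis, a rise of 0.68 (SE 0.15) or 1.60-fold (limma adjusted p = 0.0237). The call was lost without knockout 1 (limma adjusted p = 0.0732), knockout 2 (0.0588), knockout 3 (0.0678) or wild type 1 (0.0699), with log2 fold changes of 0.55 to 0.77 over the 7 runs. Blocked on the title-number groups it was 0.67 (limma adjusted p = 0.0492).

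The 7 probe sets of Xiap did not move together. Tested over all 34945 probe sets with 1 symbol, 2 of the 7 rose: the brightest, 1437533_at (limma adjusted p = 0.0280), and the dimmer 1456088_at, with a log2 fold change of 0.45 (SE 0.09, limma adjusted p = 0.0229). The annotation gives these 2 the same representative sequence, so they are not independent probes of the gene. The signals of 1456088_at averaged 4.12 in knockout testis and 3.68 in wild type testis, below the array medians, and no detection call shows it above background. The second brightest, 1450232_at, gave 6.23, 6.45 and 6.16 on the knockout arrays and 6.27, 6.37, 6.37 and 6.49 on the wild type arrays, which overlapped, with a log2 fold change of -0.095 (SE 0.09, limma adjusted p = 0.501). The brightest minus this probe set ran from 0.77 to 0.96 on the knockout arrays and from -0.28 to 0.32 on the wild type arrays. The other 4 had mean log2 signals under 3 and did not pass. Of these, 1450231_a_at and 1421394_a_at have the same representative sequence as 1450232_at. The mean of all 7 probe sets had a log2 fold change of 0.12 (limma adjusted p = 0.144), so the rise of Xiap holds for 2 probe sets and not for the gene's probe sets as a whole. No source used here says which transcripts each probe set reads.

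Of the other genes that rose, Birc3 and Casp6 also had a dimmer probe set that did not pass. The second Birc3 probe set, 1425223_at, had means of 4.62 in knockout testis and 4.595 in wild type testis and a log2 fold change of 0.025 (limma adjusted p = 0.888). The second Casp6 probe set, 1458715_at, had means of 3.70 and 3.545 in knockout and wild type testis and a log2 fold change of 0.15 (SE 0.10, limma adjusted p = 0.324). Both were dimmer than the array medians, and no detection call shows them above background. None of the 3 probe sets of Casp9 passed, at -0.10, 0.15 and -0.07. In all, 5 of the 18 probe sets of the 8 genes passed, against 3978 of all 34945 probe sets with 1 symbol. All 5 belong to the genes that rose, and those of Xiap share a representative sequence.

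**Figure D2:**
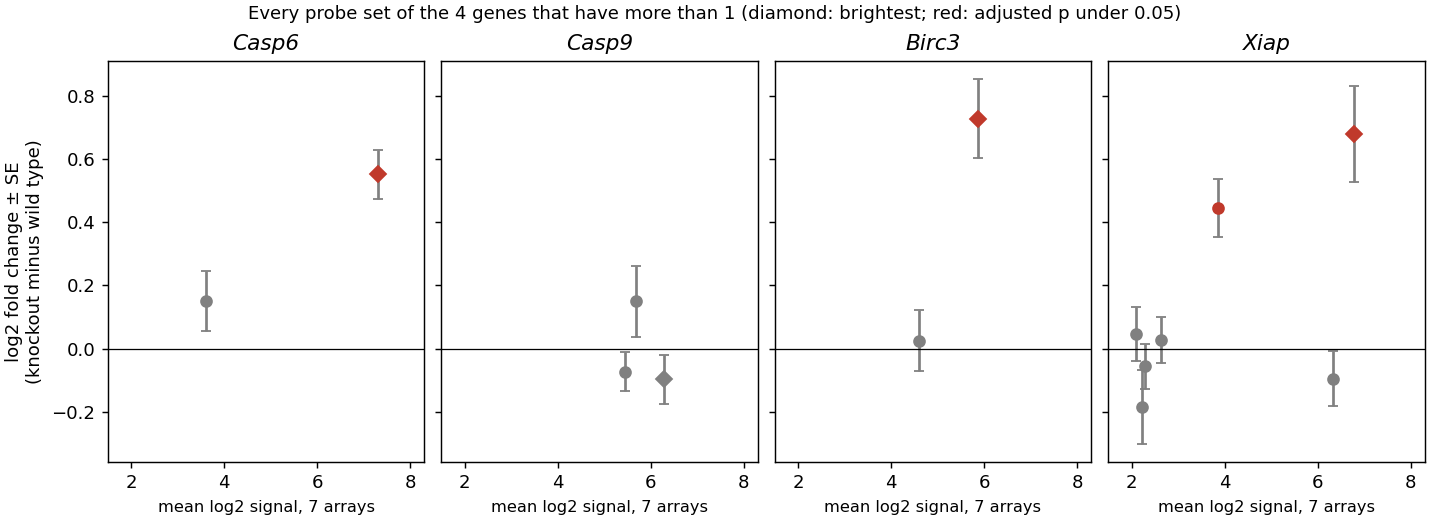
Log2 fold change ± SE, knockout minus wild type (vertical axis), against the mean log2 signal over 7 arrays (horizontal axis) for every probe set of the 4 genes with more than 1. Diamonds are the brightest probe sets and red marks an adjusted p under 0.05: 1 of 2 for Casp6, 0 of 3 for Casp9, 1 of 2 for Birc3 and 2 of 7 for Xiap.

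Wild type 2 was the lowest of all 7 arrays for Casp8, Birc3 and Xiap. This was not particular to them. Among the pathway genes below that rose, it was also the lowest for Cycs, Pdcd6, Tnfrsf1a, Nfkbia, Tab2 and Gsn, but not for Xaf1 or Ikbkg. Within the title-number groups, Casp8 differed between knockout and wild type by 0.65, 0.44 and 0.60 on the log2 scale in groups 1 to 3. Casp6 differed by 0.64, 0.595 and 0.45, and Birc3 by 0.60, 0.66 and 0.87. Xiap differed by 0.80 and 0.83 in groups 1 and 2 and by 0.32 in group 3. As the genotypes do not overlap for these genes, the sign within a group is fixed and adds nothing, but the sizes show that group 3 was the largest for Birc3 and the smallest for Xiap. Without knockout 3 and wild type 4, 0 of the 8 genes passed limma's adjusted threshold (Casp6 0.0771, Birc3 0.0776, Xiap 0.0899, Casp8 0.139; all 4 with an unadjusted p under 0.05), and 4 of all 18193 genes did.

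**Figure D3:**
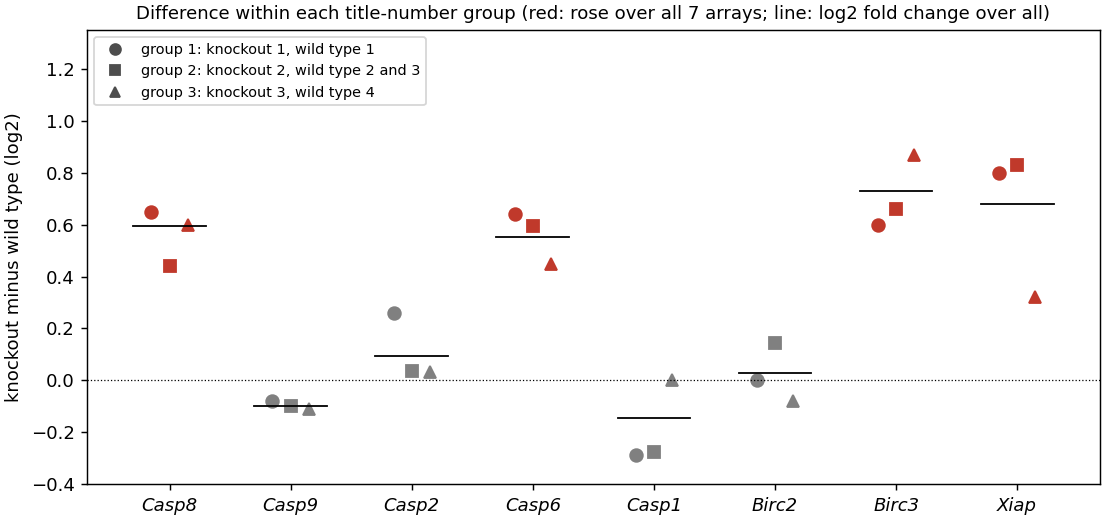
Knockout minus wild type difference in log2 signal (vertical axis) of each of the 8 genes (horizontal axis) within each title-number group (marker shape), with the log2 fold change over all 7 arrays as a line. Red genes rose over all arrays; Xiap ranges from 0.32 in group 3 to 0.83 in group 2, and the grey genes lie between -0.29 and 0.26.

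Regulators and partners of these proteins moved in both directions. Of 70 measured genes on lists of the family and its pathways, 8 rose, 5 fell and 57 did not pass, 18.6% in all against 16.1% of all tested genes, and their median log2 fold change was -0.01, against -0.045 over all. This share is near the background. The counts of single lists below are parts of it, to be read against 9.06% of all tested genes that rose and 7.03% that fell. Blocked on the title-number groups, 10 of these 13 genes stayed past the threshold and 2 others, Pycard and Tnfrsf10b, reached it, and the 13 stayed past it in 1 to 6 of the 7 runs that leave out 1 array. Of the 70 genes, 0 passed limma's adjusted threshold without knockout 3 (17 had an unadjusted p under 0.05), and 175 of all 18193 genes did. The 70 genes gave 5 calls when knockout 1 was left out, 4 when wild type 1 was and 7 when wild type 2 was. All 18193 genes gave 994, 740 and 1363 calls in these runs, so the counts moved with those of all genes.

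**Figure D4:**
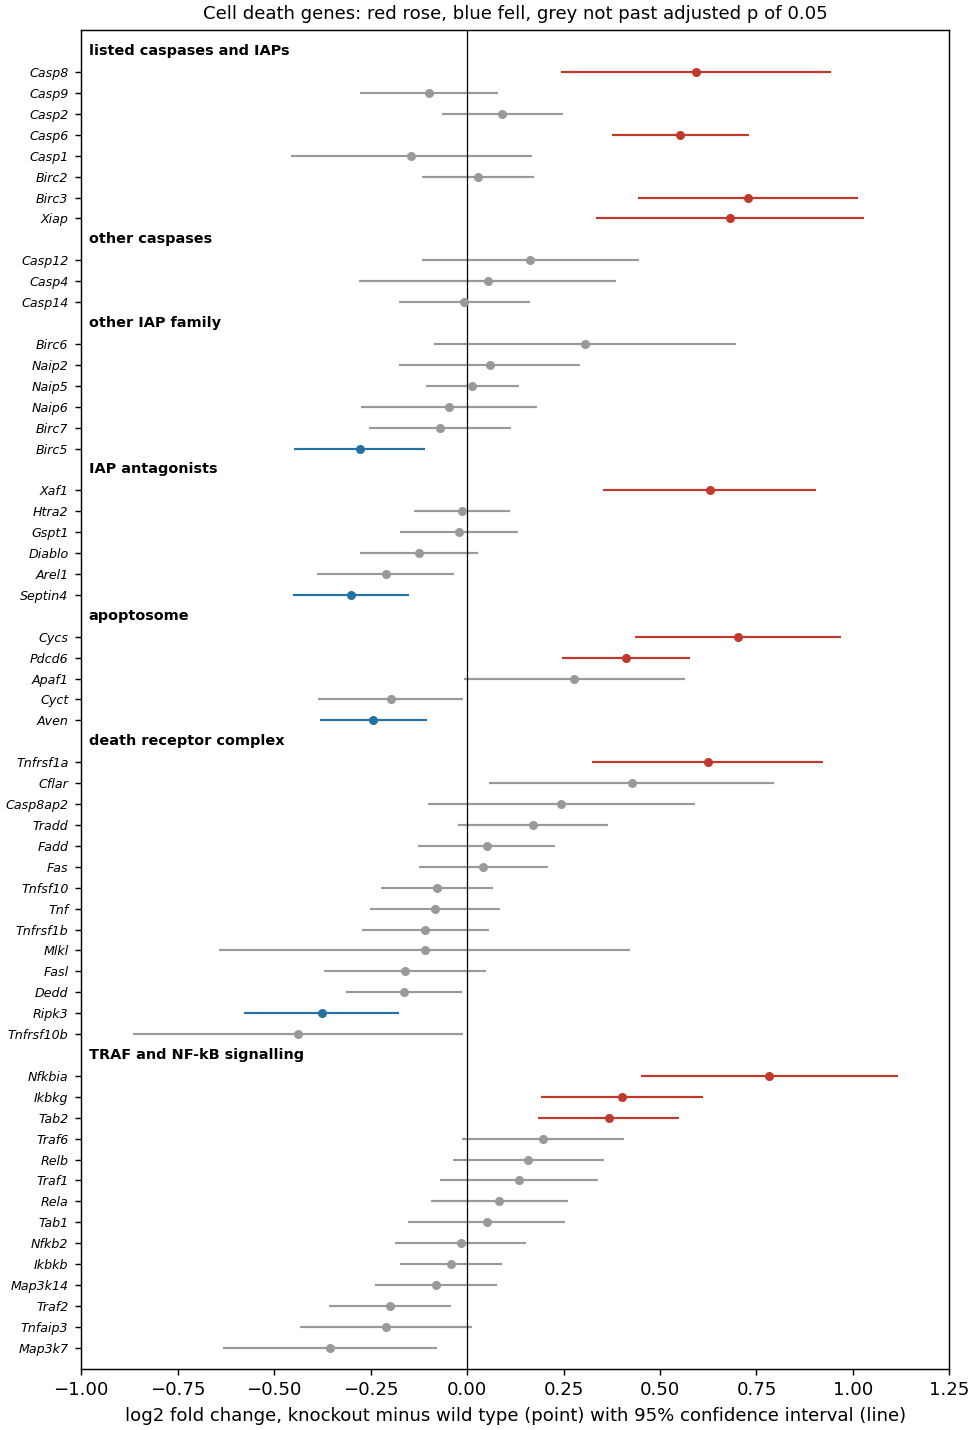
Log2 fold change, knockout minus wild type, with its 95% confidence interval (horizontal axis) for the 8 genes and for the family and pathway genes of 6 lists (rows). Red genes rose, blue genes fell and grey genes did not pass; within the lists the values run from Nfkbia at 0.78 to Tnfrsf10b at -0.44, and the lists hold both directions.

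Of 6 other IAP family genes measured, 0 rose and 1 fell. Birc5, which encodes survivin, an IAP family protein of the mitotic spindle, gave 9.13, 9.36 and 9.16 on the knockout arrays and 9.42, 9.49, 9.51 and 9.56 on the wild type arrays. It fell, with a log2 fold change of -0.28 (SE 0.07, limma adjusted p = 0.0397; 0.0611 when blocked on the title-number groups). The giant ubiquitin-conjugating IAP gene Birc6 had a log2 fold change of 0.305 (SE 0.17, limma adjusted p = 0.246) and did not pass. Naip2, Naip5 and Naip6, near-identical copies whose probes may share signal, lay between -0.05 and 0.06. They were dim, with means over all arrays of 3.58, 2.63 and 4.03.

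The proteins that oppose IAPs did not follow 1 direction. Xaf1, whose product binds Xiap and counteracts it, gave 5.46, 5.16 and 5.24 on the knockout arrays and 4.85, 4.71, 4.37 and 4.70 on the wild type arrays. It rose by 0.63 (SE 0.12, limma adjusted p = 0.0165), from wild type signals below the array medians; with the mean of all its probe sets the log2 fold change was 0.23 and did not pass (limma adjusted p = 0.153). Septin4, whose ARTS isoform antagonises Xiap and whose other products form the annulus of the sperm tail, gave 8.80, 8.75 and 8.78 on the knockout arrays and 9.16, 9.12, 8.96 and 9.07 on the wild type arrays, a log2 fold change of -0.30 (SE 0.07, limma adjusted p = 0.0228). The mitochondrial IAP antagonists Diablo (-0.125, limma adjusted p = 0.226) and Htra2 (-0.01, limma adjusted p = 0.890) did not pass, so 1 of 6 antagonists rose and 1 fell.

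Among 5 genes of the apoptosome and its regulators, 2 rose and 1 fell. The somatic cytochrome c gene Cycs gave 11.15, 11.08 and 11.24 on the knockout arrays and 10.32, 10.22, 10.60 and 10.68 on the wild type arrays, a rise of 0.70 (SE 0.12, limma adjusted p = 0.0129). Cyct, the testis cytochrome c gene of germ cells, had a log2 fold change of -0.20 (SE 0.08, limma adjusted p = 0.133) and did not pass. Apaf1, the scaffold that recruits Casp9, had a log2 fold change of 0.28 (SE 0.13, limma adjusted p = 0.159). Pdcd6, which encodes a calcium-binding protein linked to cell death, rose by 0.41 (SE 0.07, limma adjusted p = 0.0141), and Aven, whose product restrains Apaf1, had a log2 fold change of -0.24 (SE 0.06, limma adjusted p = 0.0319; 0.0611 when blocked on the title-number groups and 0.0804 after quantile normalization).

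At the death receptors, Tnfrsf1a, the main tumour necrosis factor receptor gene, gave 8.16, 8.02 and 8.49 on the knockout arrays and 7.57, 7.39, 7.82 and 7.62 on the wild type arrays. It rose by 0.62 (SE 0.13, limma adjusted p = 0.0205). Ripk3, the kinase gene of necroptosis that Casp8 holds in check, had a log2 fold change of -0.38 (SE 0.09, limma adjusted p = 0.0262), with knockout signals of 5.11, 5.13 and 4.86 and wild type signals of 5.27, 5.47, 5.46 and 5.44. The other 12 of 14 genes did not pass; of these, the death receptor gene Tnfrsf10b (-0.44, limma adjusted p = 0.140) passed when blocked on the title-number groups (-0.48, limma adjusted p = 0.0426). Cflar, the catalytically inactive relative of Casp8 that lies next to it on chromosome 1, had a log2 fold change of 0.43 (SE 0.16, limma adjusted p = 0.105), Fadd of 0.05 (limma adjusted p = 0.675) and Fas of 0.04 (limma adjusted p = 0.713). Fas was dim, with a mean of 3.40 over all arrays.

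In NF-kB signalling, 3 of 14 genes rose and 0 fell under limma's adjusted threshold. Map3k7 and Traf2 had negative fold changes at an unadjusted p under 0.05. In all, 5 of the 14 had an unadjusted limma p under 0.05, against 33.8% of all tested genes, which is near the background. The list's median log2 fold change was 0.07, against -0.045 over all tested genes. Nfkbia, which encodes the NF-kB inhibitor I kappa B alpha and is itself an NF-kB target, gave 9.72, 9.40 and 9.90 on the knockout arrays and 8.82, 8.62, 9.10 and 9.02 on the wild type arrays. It rose by 0.78 (SE 0.15, limma adjusted p = 0.0154). Ikbkg, the regulatory subunit of the I kappa B kinase, rose by 0.40 (SE 0.09, limma adjusted p = 0.0253), though the mean of all its probe sets gave 0.18 and did not pass (limma adjusted p = 0.0925). The adaptor gene Tab2 rose by 0.37 (SE 0.08, limma adjusted p = 0.0223). Traf2, the partner of Birc2 and Birc3, had a log2 fold change of -0.20 (SE 0.07, limma adjusted p = 0.0826), and the kinase gene Map3k7 of -0.355 (SE 0.12, limma adjusted p = 0.0810).

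Of 13 caspase substrates measured, 1 rose and 1 fell. The actin-severing gene Gsn, cut by caspases, rose by 0.545 (SE 0.13, limma adjusted p = 0.0261; 0.0508 when blocked on the title-number groups). Xkr8, a phospholipid scramblase gene on chromosome 4 whose protein is switched on by caspase cleavage, had a log2 fold change of -0.41 (SE 0.09, limma adjusted p = 0.0204; 0.102 with the mean of all its probe sets). Of 7 inflammasome genes measured, 0 passed limma's adjusted threshold and 0 had an unadjusted p under 0.05; the adaptor gene Pycard had the smallest p (0.36, SE 0.17, limma adjusted p = 0.169; 0.39 with 0.0455, past the threshold, when blocked on the title-number groups) and Il1b, the substrate of Casp1, had a log2 fold change of -0.11 (limma adjusted p = 0.320).

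Sertoli cell markers mostly rose in the same arrays as the 4 genes. Leydig cell, macrophage and myoid markers passed the adjusted threshold in part, and endothelial and lymphocyte markers did not pass it. Of 13 measured Sertoli cell markers 11 rose, and their mean log2 signal ran from 8.86 to 9.05 on the knockout arrays and from 8.20 to 8.56 on the wild type arrays. Of 6 Leydig cell markers 3 rose (means of 9.27 to 9.69 in knockout, 8.445 to 8.98 in wild type), and of 12 macrophage markers 6 rose (6.29 to 7.0 in knockout, 5.845 to 6.17 in wild type). Of 8 myoid and smooth muscle markers 3 rose (7.85 to 8.10 in knockout, 7.46 to 7.63 in wild type), while 0 of 7 endothelial and 0 of 7 lymphocyte markers passed limma's adjusted threshold (0 and 1 had an unadjusted p under 0.05). Of all tested genes 9.06% rose and 7.03% fell. An unadjusted limma p under 0.05 was reached by 12 Sertoli, all 6 Leydig, 9 macrophage and 5 myoid and smooth muscle markers, and by 33.8% of all tested genes. The median log2 fold changes of these 4 marker lists were 0.63, 0.70, 0.61 and 0.38 in that order, so the shift was not particular to Sertoli cell markers. Lymphocyte markers were dim, with means of 4.66 to 4.75 on the knockout arrays and of 4.70 to 4.81 on the wild type arrays, as were endothelial ones (4.42 to 4.71 in knockout, 4.38 to 4.59 in wild type). Of 9 spermatid markers 2 fell (12.17 to 12.20 in knockout, 12.22 to 12.35 in wild type), 2 of 8 spermatocyte markers fell (9.21 to 9.46 in knockout, 9.42 to 9.50 in wild type), and 1 of 7 spermatogonial markers rose (6.73 to 6.95 in knockout, 6.54 to 6.76 in wild type). Array signals have no zero, so no marker is listed as absent. Their part in the rises of Casp6, Casp8, Birc3 and Xiap was not tested.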

How the data were processed

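Total RNA from whole testis was extracted with Trizol, and biotinylated cRNA was made from 2 ug of it, per the labels' protocols. The deposited table holds log2 signals of 45101 probe sets on 7 arrays; the submitters' processing notes name Affymetrix Expression Console 1.4.1, and summarisation, background correction and normalization are not given in the sources used here. The log2 scale was read from the values (1.59 to 13.92). No normalization was added, no detection calls were used, and precision is limited by how many arrays there are (median SE of a log2 fold change 0.0843). A platform annotation named the probe sets (34958 with 1 symbol, 932 with several, 9211 with none or unlisted). Control probe sets were left out, and 18193 genes remained, each represented by its brightest probe set.

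Genotypes came from the samples' labels and were compared with limma 3.58.1 (R 4.3.3, lmFit and eBayes). The method was tested on values simulated with independent noise for 18193 genes, with 100 changed by 0.5 and 100 by 1 on the log2 scale. It recovered 60% of the former and 88% of the latter. In the real arrays 2928 genes were called, so these shares need not hold there. Promoter windows were searched for 3 motifs. Alternatives were 2 normalizations, a filter on dim genes, 2 uses of the probe sets, trend and robust settings, array weights, 2 blocks and leaving out each array; leaving out knockout 3 with wild type 4 and taking the second brightest probe set were chosen after seeing the data. The members and lists were chosen with earlier results of these data known. From each list, genes past the threshold and otherwise those with the smallest p are named, and other list genes were picked after their values were seen. Deviations from the genotype means correlated at 0.182, 0.103 and -0.143 between arrays of the same replicate number, which therefore does not pair them. The arrays of replicate numbers 1 and 2 also share a title-number group, and those of number 3 do not. Across genotypes, the deviations correlated at 0.103 to 0.319 within the title-number groups and at -0.166 to 0.0227 between arrays of different groups. The main fit was not blocked on these groups. No 2 arrays shared over 9.82% of their values.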

Additional observations from a re-analysis of the deposited data

Results flagged for a closer look

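In a group of 4 arrays, a single array was taken as standing apart when its gap to the nearest other array exceeded Dixon's critical share of the group's range; the 3 knockout arrays were too few for this. Of 22 genes examined, 2 had such an array, where chance gives about 1 in 20 groups, and both were wild type 1. Ripk3, the necroptosis kinase gene, was at 5.27 on wild type 1 and at 5.44 to 5.47 on the other wild type arrays. Ikbkg, the regulatory subunit gene of the I kappa B kinase, was at 5.01 on wild type 1 and at 5.28 to 5.31 on the others. None of the 8 caspase and IAP genes had an array that stood apart by this measure.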

How the results depend on the processing

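Of 71 fold changes of the 8 genes under the alternatives that keep all arrays and were listed at the outset, 69 kept their direction and side of the threshold. The exceptions were Xiap with the mean of all its probe sets (0.12, limma adjusted p = 0.144) and Birc2 with each array centred on its median (-0.0025). Part of this was fixed in advance. The filter on dim genes, the test of every probe set and the trend and robust settings leave the fold change itself unchanged. Only the adjusted p could move there. The same holds for the mean of all probe sets in the genes with 1 probe set, Casp1, Casp2, Casp8 and Birc2. With the mean of all probe sets Casp6 (0.35) and Birc3 (0.38) stayed past the threshold but were smaller by over 1.5 times, and among the family and pathway genes Xaf1, Ikbkg and Xkr8 lost their calls while Dedd (-0.245, limma adjusted p = 0.0293) and Gspt1 (0.215, limma adjusted p = 0.0370, against -0.02 with its brightest probe set) gained one. Casp1 was removed with the dimmest 33.3% of genes and has no value there. Over the runs that leave out 1 array, the 8 genes gave 1 to 4 calls, the family and pathway genes 0 to 12, and all tested genes 175 (without knockout 3) to 2572. The log2 fold changes ran from 0.51 to 0.60 for Casp6, 0.47 to 0.72 for Casp8, 0.595 to 0.80 for Birc3, 0.55 to 0.77 for Xiap, -0.21 to -0.01 for Casp1, 0.045 to 0.135 for Casp2, -0.15 to -0.04 for Casp9 and -0.02 to 0.06 for Birc2. Without knockout 3 and wild type 4, which leaves 5 arrays, 4 genes in all were called, with 0 of the 8 and 0 of the family and pathway genes past limma's adjusted threshold (4 and 20 had an unadjusted p under 0.05), at log2 fold changes of 0.593 for Casp6, 0.56 for Casp8, 0.637 for Birc3 and 0.815 for Xiap. With the second brightest probe set the values were 0.152 for Casp6, 0.15 for Casp9, 0.025 for Birc3 and -0.095 for Xiap, none of them past the threshold. The replicate block, on numbers that do not pair the arrays, left 4 calls among the 8 genes (Casp6 0.57, Casp8 0.66, Birc3 0.77, Xiap 0.77), 10 among the family and pathway genes and 2294 in all. The causes of these shifts were not tested.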

Other observations

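The genes that lie beside the 4 that rose did not share 1 direction. On chromosome 9, Tmem123, which lies on the other side of Birc2 from Birc3 among the genes tested and encodes a membrane mucin, rose by 0.71 on the log2 scale (SE 0.11, limma adjusted p = 0.0116), and Yap1, the Hippo pathway coactivator gene on the far side of Birc3, had a log2 fold change of -0.23 (SE 0.07, limma adjusted p = 0.0519). On the X chromosome, Thoc2, an mRNA export gene next to Xiap, rose by 0.515 (SE 0.11, limma adjusted p = 0.0191), while the cohesin subunit gene Stag2 on its other side had a log2 fold change of 0.09 (SE 0.07, limma adjusted p = 0.356). On chromosome 1, Trak2, a mitochondrial transport adaptor gene next to Casp8, rose by 0.405 (SE 0.10, limma adjusted p = 0.0357). On chromosome 3, Pla2g12a (-0.04, limma adjusted p = 0.914) and Sec24b (-0.27, limma adjusted p = 0.0707) lie beside Casp6 and did not pass. The neighbours were looked up after the values of the 8 genes were seen.

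Across the 7 arrays, after the mean of each genotype was taken off, the named genes most like Casp8 were Tle2 (Pearson r = 0.996), Serpina5 (0.996) and Bmper (0.994), and those most like Casp6 were Ttc19 (0.994), Rhoa (0.993) and Emc8 (0.982). The closest to Birc3 was the clone 4930521O11Rik (0.999), then Klf7 and Tbcd (both 0.998), and to Xiap 1500011B03Rik (0.994), then 2610528J11Rik and Cnot6l (both 0.991). Serpina5, which rose by 1.12 (limma adjusted p = 0.0116), and Rhoa and Cnot6l, which rose by 0.22 (limma adjusted p = 0.0473) and 0.41 (limma adjusted p = 0.0271), passed the test between genotypes. With 7 arrays and 18193 genes the highest r is always near 1, so these values describe the arrays only.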
